A study of Mus musculus with 145 samples.

Results

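RPG3 cells are a group of cells found in mouse spermatogonial stem cell (SSC) cultures while these were turning into pluripotent colonies, and gPSC are the germline-derived pluripotent stem cell line that was established from such cultures. The comparison described here sets the RPG3 cells, as the deposited cell annotation assigns them, against the cells of the gPSC line at its first passage. The RPG3 counts were summed within each library that held at least 5 RPG3 cells, which gave 261 cells in 8 libraries, and the gPSC passage 1 library gave 48 cells. These cells belong to 4464 annotated single-cell RNA-seq profiles in 49 libraries. The gPSC side is 1 library of 1 line, so no population test is possible, and each gene is described by whether the gPSC library lay inside or outside the range of the 8 RPG3 libraries.

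The study followed SSCs with an *Oct4*-EGFP reporter, taken from male pups of the cross C57BL/6[female] X DBA[male], over weeks of culture. All groups used here carry that strain label or, for the embryonic stem (ES) cells, the source name F1 4-5 mESC, and the RPG3 libraries carry the treatment label none, which is the condition without the added chemicals of the study. The RPG3 cells came from days 12, 18, 20 and 23 in SSC medium, which holds EGF, bFGF, GDNF and LIF, on feeder cells. The gPSC and ES cells grew on feeder cells in N2B27 medium with 2iL, in which CHIR99021 inhibits GSK3, PD0325901 inhibits MEK, and LIF is present. The gPSC library at passage 15 and the ES cell library are given beside passage 1 as single values, and the 94 SSCs of the day 0 library serve as the background for genes that an SSC already expresses.

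Mouse pluripotency is commonly described as a series of states. Naive cells, which 2iL holds, use *Esrrb*, *Klf2*, *Klf4*, *Tfcp2l1* and *Tbx3* beside the core factors *Pou5f1*, *Sox2* and *Nanog*. Formative cells, which resemble the epiblast after implantation, gain *Otx2*, *Pou3f1* and *Fgf5* and the de novo DNA methyltransferases while naive factors decline, and signalling by FGF and ERK is known to drive that step. Inhibiting GSK3 stabilizes beta-catenin and with it the transcription of Wnt targets.

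The 8 RPG3 sums held 7 to 65 cells and 1570976 to 17474953 unique molecular identifiers (UMIs), and the gPSC passage 1 sum held 14035664. The smallest RPG3 sum, day 12 replicate 2, had 7 cells and stood apart from the other 7 for several genes named below, and values without it, or without another library that sets an end of the range, are given for the genes these move most. No cell name and no count profile was shared between libraries. The 3 libraries of day 20 share a culture name in the annotation, as do both libraries of day 23, so these may not be separate cultures. The gPSC library carries a batch label that no RPG3 library has and that passage 15 shares, its medium differed from that of the RPG3 cells, and all of its cells were taken while the RPG3 cells are a cluster drawn from transcriptomes. Library, batch, medium and cell state therefore cannot be told apart for any gene below. In the grouped batch column of the annotation days 12 and 18 fall in 1 batch and days 20 and 23 in the other, although the finer batch labels split the latter into 3: day 20 replicate 1, day 20 replicates 2 and 8, and day 23. The ES cell and day 0 libraries carry the finer label of days 12 and 18. In the grouped column the ES cells stand apart and day 0 falls with days 20 and 23. Levels are CPM, UMI counts relative to the library total, with totals adjusted by the trimmed mean of M-values (TMM). An interval in brackets is a 95% Poisson interval of the gPSC count, and it covers counting error only. In summed counts, fewer cells expressing a gene and less RNA per cell cannot be told apart. Shares of cells with a UMI are given at the end beside the sums.

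Of 10145 genes with enough signal, gPSC passage 1 lay above the highest RPG3 library for 1864 (18.4%). It lay below the lowest for 1371 (13.5%), and 6910 lay inside. A further RPG3 library would also lie outside the range of the others for a part of the genes. Lying outside the range is therefore not in itself a difference between the groups. How often RPG3 libraries lie outside, or would be called, against one another was not measured. A gene is called when the gPSC level was also at least 2-fold past the nearest RPG3 library with 1 CPM added to both, and the log2 of that ratio is termed the distance, negative when gPSC was lower. The calls were 205 above (2.02%) and 304 below (3.0%), or 5.02% in all. Genes above made up 57.6% of all genes outside the range, but 47.3% when libraries were scaled by their totals alone and 43.6% with the mean of single-cell CPM, so the balance of the directions depends on the scaling. The median log2 difference over all genes was -0.00 here, -0.09 with totals alone and -0.12 with single-cell means. Among the called genes, 40.3% were above. The plot of all genes places the named ones within this distribution.

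**Figure D1:**
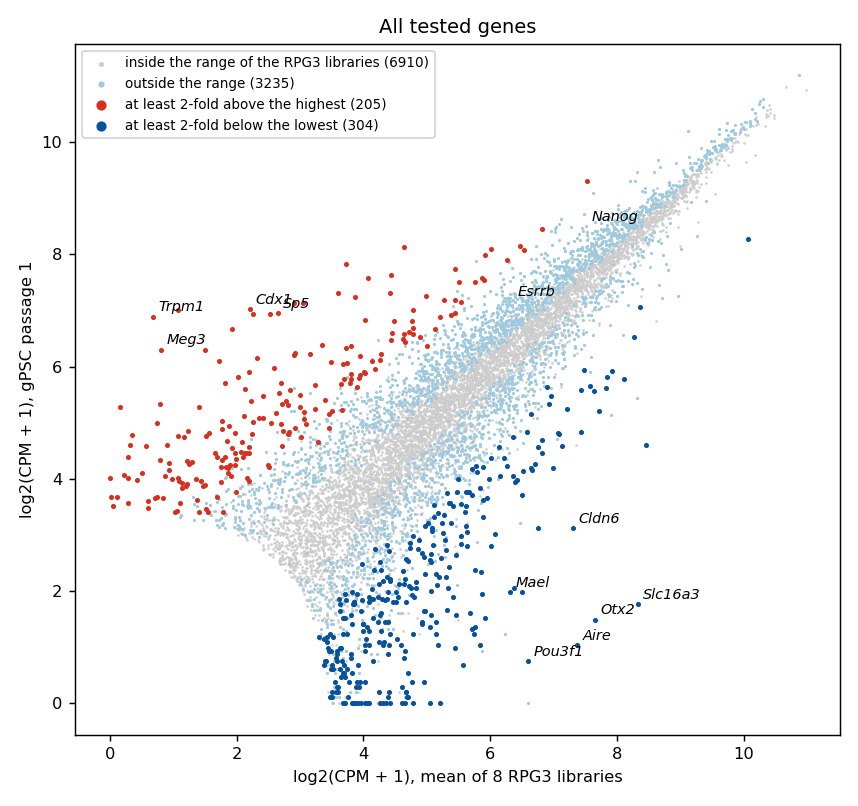
Level of each of the 10145 genes in gPSC passage 1 against the mean of the 8 RPG3 libraries, both as log2 of CPM with 1 CPM added. Genes outside the range of the RPG3 libraries number 3235, of which 205 above and 304 below were at least 2-fold past the nearest library, with *Otx2* among the farthest below.

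The levels of the markers given for RPG3, *Otx2*, *Nanog* and *Esrrb*, are a description and no check of the label, since the clusters were drawn and named from the same transcriptomes. *Otx2* (chr14:48657677-48673819, minus strand, mm10), a homeobox factor of the formative epiblast, was 128, 214, 150, 205, 180, 159, 316 and 256 CPM in the RPG3 libraries of day 12 replicate 2, day 18 replicates 3 and 5, day 20 replicates 1, 2 and 8, and day 23 replicates 1 and 2. It was 1.81 CPM in gPSC passage 1, from 24 UMIs (1.16 to 2.69), which put the mean of the RPG3 libraries 111-fold higher and the distance at -5.52. The groups did not overlap, and the day 12 library was the lowest and both day 23 libraries were the highest of the 8. At passage 15 the gene stood at 9.70 CPM, in ES cells at 0.0675, and in day 0 SSCs at 0.0544. *Nanog* (chr6:122707489-122714633, plus strand), a core pluripotency factor, ran from 125 to 216 CPM in RPG3 with a median of 189, and was 362 CPM in gPSC passage 1 (352 to 373). That level lay above all 8 RPG3 libraries at a distance of 0.75, which is short of a call, and passage 15 and ES cells held 431 and 521 CPM. *Esrrb* (chr12:86361117-86521628, plus strand), an orphan nuclear receptor of the naive network, was 177 CPM in day 12 replicate 2 and 52.5 to 84.6 CPM in the other 7 libraries. Its 143 CPM in gPSC passage 1 (137 to 150) lay inside the range because of that 7-cell library. Without it, and with the other sums scaled anew, the RPG3 range was 52.1 to 83.8 CPM against 145, and the distance was 0.79. The plot of 15 genes by library shows the same values point by point.

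**Figure D2:**
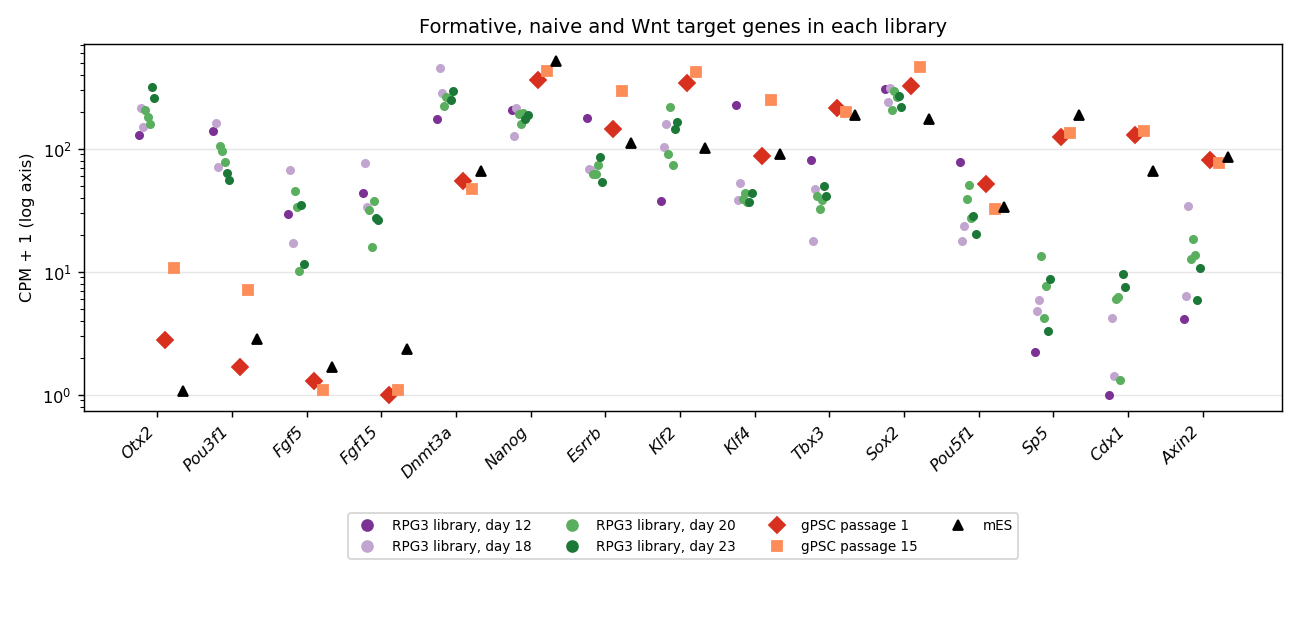
Levels in CPM with 1 CPM added (log axis) of 15 formative, core, naive and Wnt target genes. Each circle is 1 of the 8 RPG3 libraries coloured by day, diamonds are gPSC passage 1, squares passage 15 and triangles ES cells, with 1 library each and no error bars. *Otx2* in gPSC passage 1 lies at 1.81 CPM, under the lowest RPG3 library at 128 CPM, while *Esrrb* at 143 CPM lies inside a range whose upper end is the day 12 library.

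The summed level of *Pou5f1*, *Sox2* and *Nanog* was 380 to 590 CPM over the RPG3 libraries and 739 CPM in gPSC passage 1, against 13.6 CPM in day 0 SSCs. *Sox2*, the partner of Pou5f1 on DNA, spanned 207 to 309 CPM in RPG3 with a median of 266, and gPSC passage 1 at 325 CPM was 0.07 past the highest library on the log2 scale. *Pou5f1*, which encodes Oct4, ranged from 16.7 to 77.1 CPM with a median of 26.8, and the gPSC level of 51.2 CPM was inside only because day 12 replicate 2 held the highest level. Without that library the range was 16.6 to 49.7 CPM against 52.0, a distance of 0.06. Of the 14 genes of the core pluripotency list, 4 were above the RPG3 range, 2 below and 8 inside, and none was called, with a median log2 difference of 0.09 (18.4% of all genes lay above and 13.5% below). Without day 12 replicate 2, 6 were above and 4 below, again with no call, where 2472 of 10130 genes were above and 1810 below. The core network was thus measured on both sides at levels that differed by less than 2-fold from the nearest library. The 2 below included *Tdgf1*, the Nodal co-receptor Cripto, at 588 to 808 CPM in RPG3 and 492 CPM in gPSC passage 1.

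Formative and primed genes lay inside or below the RPG3 range in gPSC passage 1. Of the 18 on this list, 13 had enough signal, none lay above the RPG3 range and 8 lay below, where 13.5% of all genes did. The 5 that were called lower in gPSC passage 1, where 3.0% of all genes were, are *Otx2*, *Pou3f1*, *Fgf15*, *Fgf5* and *Dnmt3a*. The median log2 difference of the list was -1.34. *Pou3f1*, a POU factor also known as Oct6, ranged from 55.2 to 162 CPM in RPG3 with a median of 85.9, and was 0.679 CPM in gPSC passage 1 from 9 UMIs, at a distance of -5.06. It stood at 57.0 CPM in day 0 SSCs, within the RPG3 range. *Fgf15*, a secreted FGF, had a range of 14.8 to 76.4 CPM with a median of 32 in RPG3 and no UMI in gPSC passage 1, so the lowest RPG3 library, day 20 replicate 2, was at least 65.4-fold higher than the floor of 3 UMIs in the gPSC library. The distance was -3.98, or -4.73 without day 20 replicate 2. *Fgf5*, the classic epiblast marker, had 9.20 to 66.1 CPM with a median of 30.7 in RPG3, 0.302 CPM from 4 UMIs in gPSC passage 1 (distance -2.97), and no UMI in day 0 SSCs. All 8 RPG3 libraries lay above the gPSC library for these factors, as a call requires. Passage 15 and ES cells held at most 6.08 CPM of *Pou3f1*, 0.675 CPM of *Fgf5* and 1.35 CPM of *Fgf15*. The 3 genes that were lower but short of a call were *Dnmt3b*, *Zic5* and *Grhl2*. *Grhl2*, an epithelial transcription factor, had a distance of -0.19, which became -1.39 without day 20 replicate 1. *Lef1*, a TCF factor of the Wnt pathway that is also on this list, was 50.4 to 106 CPM in RPG3 and 92.5 CPM in gPSC passage 1, inside the range.

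The DNA methylation machinery was not uniform. *Dnmt3a*, a de novo methyltransferase, ranged from 175 to 458 CPM in RPG3 with a median of 260 and was 53.6 CPM in gPSC passage 1, at a distance of -1.69. *Dnmt3b*, the other de novo enzyme, ran from 303 to 545 CPM (median 404) against 175 CPM, a distance of -0.79. *Dnmt3l*, the cofactor of both, was also below all 8 libraries, at -0.80. The highest *Dnmt3a* level came from day 18 replicate 3, and the gPSC level was near those of passage 15 and ES cells, 45.9 and 64.9 CPM. *Dnmt1*, the maintenance enzyme, was 118 to 314 CPM in RPG3 and 164 CPM in gPSC passage 1, inside the range. Of the 11 genes of the list with signal, 3 lay below, 1 above (*Zfp57*, which protects imprints, distance 0.29) and 7 inside, where over all genes 13.5% lay below and 18.4% above, and 3.0% were called below.

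All 16 genes of the naive list had enough signal, 9 lay above the RPG3 range (18.4% over all genes) and 1 below (13.5%), and 3 were called higher in gPSC passage 1, where 2.02% of all genes were. The median log2 difference was 0.74. *Tbx3*, a T-box factor, had 16.8 to 80.3 CPM in RPG3 with a median of 40.4, and 213 CPM in gPSC passage 1, at a distance of 1.40, or 2.14 without day 12 replicate 2, which held the highest level. *Gbx2*, a homeobox factor downstream of STAT3, had 14.96 to 49.2 CPM (median 35.3) against 101 CPM, at 1.03. The third call, *Sp5*, is described with the Wnt targets. Under scaling by totals alone the calls of this list were 2 above and 1 below, where 186 of 10119 genes were called above and 341 below. *Tfcp2l1*, a factor of the LIF response, ranged from 25.7 to 138 CPM with a median of 45.9 and was 234 CPM in gPSC passage 1, which is a distance of 0.76, and without day 12 replicate 2 the distance was 1.93 and the gene was called. *Klf2*, a Krüppel-like factor, had 36.7 to 219 CPM (median 124) against 341 CPM, a distance of 0.63 that became 1.04 without day 20 replicate 2. *Klf4*, its relative, was 225 CPM in day 12 replicate 2, and its 87.2 CPM in gPSC passage 1 lay inside the range. Without that library the range was 35.8 to 51.9 CPM against 88.6, a distance of 0.76. The naive factors thus ranged from no separation to a call, and for *Esrrb*, *Klf4*, *Tbx3* and *Tfcp2l1* the 7-cell day 12 library held the highest RPG3 level. *Dppa3*, a maternal and germ cell protein also called Stella, was the exception in direction, at 179 to 356 CPM in RPG3 (median 277) and 93.6 CPM in gPSC passage 1, a distance of -0.93.

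Wnt target genes were measured next because the gPSC medium holds a GSK3 inhibitor. Only 8 of the 15 listed genes had enough signal, of which 5 lay above the RPG3 range (18.4% over all genes), 3 of them called (2.02% over all genes), and 1 below. *Sp5*, a zinc finger factor and direct target of beta-catenin, had 1.24 to 12.4 CPM in RPG3 with a median of 4.35, and 123 CPM in gPSC passage 1, at a distance of 3.22, or 3.82 without day 20 replicate 1. *Cdx1*, a caudal-type homeobox factor, had 0 to 8.58 CPM in RPG3 (median 4.09) and 129 CPM in gPSC passage 1, at 3.76. *Axin2*, the feedback inhibitor of the pathway, had 3.11 to 33 CPM (median 10.7) against 79.7 CPM, at 1.25, or 2.14 without day 18 replicate 5, which held the highest level. For all 3 genes every RPG3 library was under the gPSC level, as a call requires. Both other 2iL libraries were high as well. In passage 15 and ES cells *Sp5* was at 134 and 188 CPM, *Cdx1* at 140 and 65.2 CPM, and *Axin2* at 75.9 and 85.1 CPM. Day 0 SSCs held 30.4 CPM of *Sp5* and 15 CPM of *Axin2* in the same SSC medium. *Tcf7*, another TCF factor, ran counter, at 16.4 to 66.8 CPM in RPG3 and 15.1 CPM in gPSC passage 1, which is a distance of -0.11.

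The promoter of *Sp5* is printed because that gene had the largest distance of the Wnt targets with a window in the RefSeq table, beside that of *Axin2*, which has no match. Each window holds the 250 bases before the RefSeq start, 5′ to 3′ on the strand of the gene, in GRCm38.p6. Capitals mark CTTTGA, a core of the TCF and LEF motif, which was searched on both strands (TCAAAG on the other).
Sp5, chr2:70474673-70474922, plus strand: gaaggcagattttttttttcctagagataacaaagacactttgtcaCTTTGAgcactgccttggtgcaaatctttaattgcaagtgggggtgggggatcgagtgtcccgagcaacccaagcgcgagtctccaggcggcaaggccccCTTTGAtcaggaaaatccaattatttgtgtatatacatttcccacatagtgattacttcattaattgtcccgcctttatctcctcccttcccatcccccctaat
Axin2, chr11:108920099-108920348, plus strand: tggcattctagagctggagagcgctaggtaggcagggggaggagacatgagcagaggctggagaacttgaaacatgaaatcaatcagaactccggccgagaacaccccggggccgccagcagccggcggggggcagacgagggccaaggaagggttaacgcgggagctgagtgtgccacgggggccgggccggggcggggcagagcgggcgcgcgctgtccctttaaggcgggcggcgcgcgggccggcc
The *Sp5* window held 2 matches, which begin at bases -204 and -104 from the start. Such a match was in 13.8% of all 32851 windows. By gene it was in 15.8% of the 27025 genes with a window and in 12.4% of the 7632 of these with enough signal. It is therefore a description of these letters and not a measure of binding.

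Genes downstream of ERK were measured because the gPSC medium also holds a MEK inhibitor. Of the 17 with signal, 4 lay below the RPG3 range, 2 above and 11 inside, where 13.5% of all genes lay below and 18.4% above. *Egr1*, an immediate early zinc finger factor, had 15.7 to 52.3 CPM in RPG3 (median 28.8) and 1.74 CPM in gPSC passage 1, at a distance of -2.61. *Ier3*, another immediate early gene, had 24.5 to 136 CPM (median 53.7) against 7.09 CPM, at -1.66, or -2.27 without day 18 replicate 3. These 2 were the called members, where 3.0% of all genes were called below. The ERK phosphatases behaved differently from each other: *Dusp6* at 57.9 to 112 CPM in RPG3 was only just above the gPSC level of 54.0 CPM (distance -0.10, or -0.52 without day 12 replicate 2), while *Dusp4* at 1.96 CPM and *Dusp5* at 1.81 CPM were inside because 1 or more RPG3 libraries were as low (1.87 and 1.53 CPM). Without day 12 replicate 2 the *Dusp4* range was 12.3 to 39.6 CPM against 1.99, a distance of -2.15, and without day 20 replicate 1 that of *Dusp5* was -0.79. *Fos*, an AP-1 subunit, was inside but at -1.14 without day 20 replicate 2, and *Spry4*, a feedback inhibitor, went from -0.71 to -1.08 without day 23 replicate 2. *Egr1* is also one of the genes that cell dissociation induces, and of the 6 genes with signal on a list of such genes it was the single call, with 4 inside the range.

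LIF is in both media. Of the 9 genes on the LIF and STAT3 list, 8 lay inside the RPG3 range and 1 above, where over all genes 18.4% lay above and 13.5% below. The receptor subunits *Lifr* at 37.6 CPM and *Il6st* at 33.3 CPM and the kinase *Jak1* at 23.2 CPM in gPSC passage 1 fell within RPG3 ranges of 31.3 to 58.5, 10.6 to 44.3 and 22.4 to 50.1 CPM, although *Jak1* was at -0.43 without day 20 replicate 2. *Pim1*, a kinase induced by STAT3, was above at 0.68, or 1.09 without day 12 replicate 2.

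Of the FGF ligands and receptors, 5 had signal, 3 were below (13.5% over all genes) and 2 of those are the called *Fgf5* and *Fgf15* (3.0% over all genes). *Fgf4*, the FGF that pluripotent cells secrete, was 93.8 to 212 CPM in RPG3 with a median of 139 and 75.1 CPM in gPSC passage 1, a distance of -0.32. Of the Nodal signalling genes with signal, 2 of 9 lay above, 3 below and 4 inside, against 18.4% above and 13.5% below over all genes. The ligand *Nodal* was 15.9 to 54.1 CPM in RPG3 (median 25.9) and 73.5 CPM in gPSC passage 1, at 0.43, whereas *Skil*, an inhibitor of SMAD signalling, was 53.5 to 187 CPM (median 88.7) against 17.2 CPM, the called member at -1.58. Among 5 BMP genes, 2 were above (18.4% over all genes), 1 below (13.5%) and none called, and *Bmp4* at 43.3 CPM lay inside the RPG3 range of 33.4 to 153 CPM, or at -0.39 without day 18 replicate 3. *Bmp7* was above by 0.25, at 1.24 to 14.9 CPM in RPG3 and 17.9 CPM in gPSC passage 1. *Id1*, a target of BMP, was lower at -0.35, or -1.04 without day 23 replicate 1.

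Hypoxia factors and genes known to be induced by low oxygen lay inside or below the RPG3 range. All 15 genes of the hypoxia list had signal, none lay above the RPG3 range and 8 lay below (13.5% over all genes), of which 4 were called (3.0% over all genes), and the median log2 difference was -1.71. *Ankrd37*, an ankyrin repeat gene induced through HIF, had 21.4 to 139 CPM in RPG3 with a median of 101, and 2.94 CPM in gPSC passage 1, at a distance of -2.51. *Ddit4*, an inhibitor of mTORC1, had 36.9 to 165 CPM (median 77.6) against 12.1 CPM, at -1.53. *Bnip3*, a mitophagy receptor, had 69.1 to 574 CPM (median 419) against 23.4 CPM, at -1.52, or -2.34 without day 12 replicate 2. The fourth call was *Pdk1*, the kinase that shuts pyruvate dehydrogenase, at 192 to 399 CPM against 91.5, with a distance of -1.06, or -1.62 without that library. As a call requires, all 8 RPG3 libraries exceeded the gPSC level for each of these genes. The factors *Hif1a* (48.5 to 139 CPM in RPG3, 83.3 CPM in gPSC) and *Epas1* (23.8 to 142 and 35.1 CPM) were themselves inside the range. *Slc2a1*, the glucose transporter GLUT1, was 174 CPM in day 12 replicate 2, which brought its distance from the gPSC level of 152 CPM to -0.19. Without that library the list had 10 genes below and 8 called, where 1810 of 10130 genes were below and 436 called below. The added calls were *Slc2a1* at -1.59 (467 to 609 CPM against 154), *Egln3* at -2.80 (64.2 to 141 against 8.35), *Ndufa4l2* at -5.36 (40.1 to 165 against 0) and *P4ha1* at -1.41. Against the 5 libraries of days 20 and 23 alone, 14 of the genes were below, 1 above and 10 called below. Over all genes 2301 of 10191 were below there and 586 called below. Against the 3 libraries of days 12 and 18 alone, 9 of 14 were below, 1 above and 4 called below. Over all genes 2489 of 10041 were below there and 477 called below.

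The promoters of *Ankrd37*, *Bnip3* and *Ddit4* are shown because these are the 3 hypoxia genes with the largest called distances. They are 250 bases before the RefSeq start in GRCm38.p6, 5′ to 3′ on the strand of the gene, with capitals for ACGTG, the core of the hypoxia response element, which was searched on both strands (CACGT on the other).
Ankrd37, chr8:45999851-46000100, minus strand: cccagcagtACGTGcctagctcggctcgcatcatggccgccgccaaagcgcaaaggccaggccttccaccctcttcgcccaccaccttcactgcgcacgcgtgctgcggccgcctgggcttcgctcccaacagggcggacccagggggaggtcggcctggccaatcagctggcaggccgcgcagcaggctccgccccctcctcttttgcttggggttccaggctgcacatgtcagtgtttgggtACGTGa
Bnip3, chr7:138909507-138909756, minus strand: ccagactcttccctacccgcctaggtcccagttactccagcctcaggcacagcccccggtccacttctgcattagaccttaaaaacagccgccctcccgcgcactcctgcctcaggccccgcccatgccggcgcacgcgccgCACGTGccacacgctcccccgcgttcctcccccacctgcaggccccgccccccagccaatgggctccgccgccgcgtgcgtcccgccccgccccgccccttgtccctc
Ddit4, chr10:59951771-59952020, minus strand: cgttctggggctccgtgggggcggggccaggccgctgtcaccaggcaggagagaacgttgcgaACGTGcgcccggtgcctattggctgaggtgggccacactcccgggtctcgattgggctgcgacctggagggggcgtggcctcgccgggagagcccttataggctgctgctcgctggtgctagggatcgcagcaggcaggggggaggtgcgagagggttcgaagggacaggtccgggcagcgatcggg
The *Ankrd37* window held 2 matches, beginning at bases -241 and -6, and that of *Ddit4* held 1 at base -187. In *Bnip3* the letters CACGTG read as a match on each strand, at bases -108 and -107, and the 2 overlap. A match was present in 9 of the 11 hypoxia genes with a window. Among all genes with a window it was in 18.5%, and among those with enough signal in 26.4%. It was in 5 of 7 such genes below the RPG3 range and 4 of 4 inside it, so holding the letters did not separate these groups.

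Of the 17 glycolysis genes with signal, none was above the RPG3 range, 6 were below (13.5% over all genes) and 2 were called (3.0% over all genes), with a median log2 difference of -0.41. *Aldoc*, an aldolase, had 64.7 to 168 CPM in RPG3 (median 108) against 21 CPM, at -1.58. *Ldha*, which makes lactate from pyruvate, had 657 to 1210 CPM (median 1142) against 310 CPM, at -1.08, and its lowest level was in day 12 replicate 2, without which the distance was -1.66. *Slc16a3*, the lactate exporter MCT4 and one of the 10 genes farthest below, had 44.2 to 429 CPM with a median of 355 in RPG3 and 2.41 CPM from 32 UMIs in gPSC passage 1, at -3.73. Its mean was 133-fold higher in RPG3, and without day 12 replicate 2 the range was 242 to 425 CPM and the distance -6.14. The first steps of the pathway did not separate, with *Hk1* at 33.6 CPM, *Hk2* at 424 CPM and *Gpi1* at 346 CPM in gPSC passage 1, each inside the RPG3 range. Leaving out day 12 replicate 2 gave 10 genes below and 3 called, where 1810 of 10130 genes were below and 436 called below. The added call was *Pfkl*, a phosphofructokinase subunit, whose distance went from -0.92 to -2.41.

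Of 81 respiratory chain genes encoded in the nucleus with signal, 40 lay above the RPG3 range, 40 inside and 1 below, against 18.4% of all genes above and 13.5% below, and none was called. The median log2 difference was 0.25. When libraries were scaled by totals alone 33 were above and 3 below, where 1480 of 10119 genes were above and 1648 below. The ATP synthase subunit *Atp5b*, for instance, was 665 to 890 CPM in RPG3 with a median of 852 and 963 CPM in gPSC passage 1, a distance of 0.11, and *Atp5a1* at 557 to 753 CPM against 761 was 0.02 past the range. The single gene below was *Ndufa4l2*, which is induced by hypoxia and is on that list too. Of the 8 mitochondrially encoded genes with signal, 7 lay inside the range, among them *mt-Nd1* at 2029 CPM and *mt-Nd2* at 935 CPM in gPSC passage 1, and *mt-Nd3* was above at 0.22. That count rested on day 18 replicate 5, without which 6 of the 8 were above, *mt-Nd1* by 0.12 and *mt-Nd2* by 0.09. Over all genes 2169 of 10198 were above in that setting. Against the libraries of days 20 and 23 alone 6 of 8 were also above, where 2939 of 10191 genes were. The plot of the gene lists gives these counts together.

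**Figure D3:**
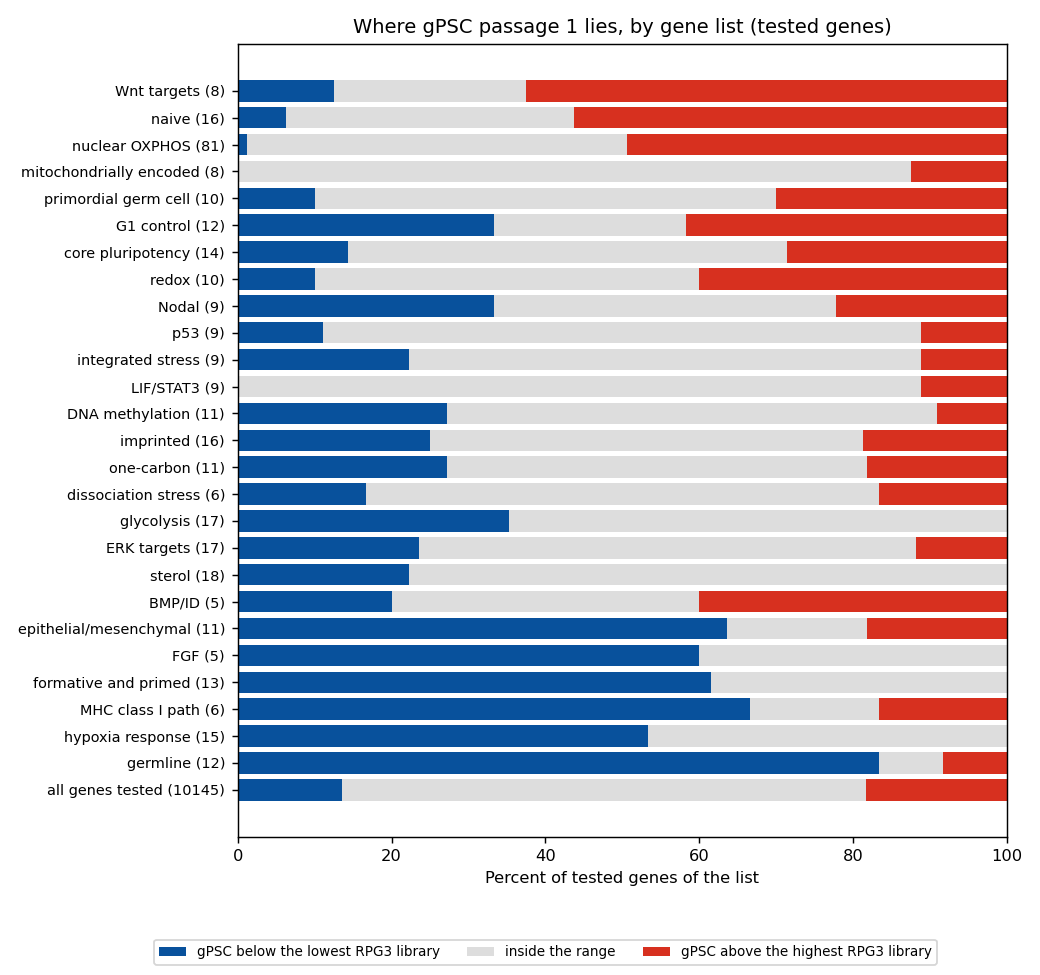
Share of the members with enough signal of each gene list that lay above or below the range of the 8 RPG3 libraries in gPSC passage 1, in percent (red above, blue below, grey inside), with the number of members after each name and all 10145 genes in the lowest bar. The formative list has 8 of 13 members below and none above, the nuclear respiratory chain list 40 of 81 above, and the hypoxia list 8 of 15 below.

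Germline genes had the lowest median of the 30 lists. Of 18 listed genes, 12 had signal, 10 lay below the RPG3 range (13.5% over all genes), 7 of them called (3.0% over all genes), and 1 lay above, with a median log2 difference of -3.34. *Taf7l*, a TFIID subunit of male germ cells, had 18.9 to 101.6 CPM in RPG3 with a median of 33.2 and 0.604 CPM in gPSC passage 1, at -3.63. *Tex101*, a germ cell surface protein, had 23.7 to 106 CPM (median 36.1) against 1.36 CPM, at -3.39. *Mael*, a protein of the piRNA pathway, had 32.2 to 136 CPM (median 73.0) against 2.94 CPM, at -3.08. In day 0 SSCs these genes stood at 524, 455 and 517 CPM, several times above the highest RPG3 library. *Ddx4*, the germ cell helicase Vasa, had 18.5 to 79.4 CPM in RPG3 and 2.72 CPM in gPSC passage 1, at -2.39. *Dazl*, an RNA-binding protein, was at 62.9 to 145 CPM against 44.4, and *Dnd1*, another RNA-binding protein, at 35 CPM lay inside. Over the 48 gPSC cells *Dazl* had a median of 0 CPM, an upper quartile of 42.0 CPM and 1263 CPM in the highest cell. The gene above was *Kit*, a receptor of differentiating germ cells and of stem cells more widely, at 0.68, or 1.19 without day 20 replicate 1. *Sycp1*, of the synaptonemal complex, was at -0.89, or -1.21 without day 20 replicate 2.

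Levels of these germline genes were uneven among the RPG3 libraries. The summed list ran from 260 to 819 CPM with a median of 422, and was 142 CPM in gPSC passage 1. The 8 source libraries held between 0 and 26 cells annotated as SSC, most of them in day 20 replicate 8 (26, of which 2 under the culture name of its RPG3 cells) and day 23 replicate 1 (20). They also held cells annotated as RPG1, an earlier cluster of the same route, 28 to 61 in 7 of the libraries and none in day 12 replicate 2. Day 23 replicate 2 had the most RPG1 cells (61) and 1 SSC. Markers of spermatogonia (*Zbtb16*, *Dazl*, *Ddx4*, *Gfra1* and *Dmrt1*) summed to 91.5 to 261 CPM in RPG3, with the highest sum in day 23 replicate 2, and to 54.9 CPM in gPSC passage 1 and 1563 CPM in day 0 SSCs, and their part in the germline result was not tested. *Zbtb16* had an upper quartile of 0 CPM over the gPSC cells and 433 CPM in the highest cell. Of the 304 genes called below, 101 (33.2%) were higher in day 0 SSCs than in any RPG3 library, against 51 of the 205 called above (24.9%) and 19.9% of all genes with signal. Markers of fibroblasts, the feeder cell type, summed to 9.57 to 39.0 CPM in RPG3 and 2.87 CPM in gPSC passage 1, where *Col1a1* alone was above 0 and the other 6 of 7 were at 0. *Thy1*, which fibroblasts and spermatogonia both express, was 7.59 to 20.5 CPM in RPG3 with no UMI in gPSC passage 1, and the lowest RPG3 library was at least 33.5-fold higher than the floor. Of 3 genes with signal on a longer feeder list, it was the single call (3.0% of all genes were called below), with 1 above (18.4% over all genes) and 1 inside. Endoderm markers reached at most 1.11 CPM in RPG3 and 1.13 in gPSC passage 1, neural markers 34.8 (at most 11.96 CPM outside day 12 replicate 2) and 5.81 CPM, and markers of 2-cell-like cells 4.29 and 0 CPM. None of the genes on the longer 2-cell list had enough signal.

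Imprinted genes, which are expressed from 1 parental allele, did not share a direction. Of 21 listed, 16 had signal, 3 lay above the RPG3 range and all 3 were called, 4 lay below with 2 called, and 9 lay inside, where over all genes 18.4% lay above and 2.02% were called above, and 13.5% lay below and 3.0% were called below. Without day 18 replicate 5, 5 lay above, where 2169 of 10198 genes did. *Meg3* (chr12:109541001-109571726, plus strand), the maternally expressed non-coding RNA of the Dlk1 domain, had 0.0902 to 2.02 CPM in RPG3 with a median of 0.700, and 77.9 CPM in gPSC passage 1, at a distance of 4.71, or 5.32 without day 18 replicate 5. *Mirg* (chr12:109729764-109749460, plus strand), a second non-coding RNA of that domain, had 0 to 0.952 CPM against 23.3 CPM, at 3.64. *Plagl1*, a zinc finger factor expressed from the paternal allele, had 2.08 to 4.67 CPM (median 3.03) against 24.1 CPM, at 2.15. Passage 15 held 30.02, 9.52 and 119 CPM of *Meg3*, *Mirg* and *Plagl1*, ES cells 121, 20.1 and 42.4 CPM, and day 0 SSCs 10.9, 4.08 and 16.6 CPM, all above the highest RPG3 library. *H19*, a maternally expressed non-coding RNA, went the other way, at 4.13 to 35.2 CPM in RPG3 (median 9.57) with no UMI in gPSC passage 1, so the lowest library was at least 18.2-fold higher than the floor. *Peg3*, a paternally expressed zinc finger gene, had 123 to 241 CPM (median 158) against 47.0 CPM in passage 1, at -1.37, but 201 CPM in passage 15, inside the RPG3 range. *Igf2* at 2.34 CPM and *Igf2r* at 21.8 CPM in gPSC passage 1 fell within 0.735 to 11.3 and 16.2 to 59.1 CPM. *Peg10*, a gene of retrotransposon origin, was at -0.74, or -1.13 without day 12 replicate 2. Allele of origin was not measured.

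Of 11 epithelial and mesenchymal genes with signal, 7 lay below the RPG3 range (13.5% over all genes), 3 of them called (3.0%), and 2 above (18.4%). *Esrp1*, an epithelial splicing regulator, had 29 to 70.9 CPM in RPG3 (median 36.2) against 0.981 CPM, at -3.92. *Cldn6*, a tight junction claudin of the epiblast, had 78.6 to 250 CPM (median 142) against 7.70 CPM, at -3.19. *Krt18*, a keratin, had 10.1 to 98.0 CPM (median 39.6) against 1.51 CPM, at -2.15, or -2.90 without day 18 replicate 5. The adhesion genes common to pluripotent cells separated less, with *Cdh1* at 80.5 to 211 CPM against 72.6 and *Epcam* at 261 to 354 CPM against 188. The 2 above were *Cdh2*, N-cadherin, at 0.89 (1.51 without day 18 replicate 5), and *Snai1*, a repressor of *Cdh1*, at 0.91 (1.32 without day 23 replicate 2). *Cldn7*, another claudin, was at -0.80, or -3.06 without day 12 replicate 2. *Zeb1*, a repressor of epithelial genes, was inside but at 1.53 without day 18 replicate 5.

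Of 6 antigen presentation genes with signal, 4 were below (13.5% over all genes) and 2 called (3.0%). The immunoproteasome subunits *Psmb9* (8.71 to 56.5 CPM in RPG3, 0.151 CPM from 2 UMIs in gPSC, distance -3.08) and *Psmb8* (1.87 to 40.7 CPM, no UMI, distance -1.52, and -3.40 without day 12 replicate 2) are neighbours on chromosome 17. The lowest *Psmb8* level, in day 12 replicate 2, was itself at the floor of 3 UMIs of that sum, so no fold is given. The class I heavy chain *H2-K1* was 41.7 to 109 CPM against 25.7, at -0.68, or -1.41 without day 12 replicate 2, whereas the light chain *B2m* was higher at 106 CPM against 20.8 to 71.0 CPM, at 0.57, or 1.18 without day 23 replicate 2. *H2-K1* and *B2m*, subunits of 1 complex, therefore lay on opposite sides of the RPG3 range. *H2-D1*, another class I heavy chain, lay inside it.

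Cell cycle, stress and nutrient genes gave few calls, and their counts stand against 18.4% of all genes above, 13.5% below, 2.02% called above and 3.0% called below. *Cdk6*, a G1 kinase, had 6.66 to 40.3 CPM in RPG3 (median 28.3) and 85.5 CPM in gPSC passage 1, at 1.07, while *Ccnd2*, a D-type cyclin, had 24.4 to 118 CPM (median 42.5) against 2.87 CPM, at -2.71. These were the calls among 12 genes of G1 control, of which 5 lay above and 4 below. *Cdkn2a*, a locus of cell cycle inhibitors, was at -0.57, or -1.54 without day 20 replicate 8. *Nqo1*, a quinone reductase, had 1.90 to 28.3 CPM (median 15.1) against 113 CPM, at 1.97, the single call of 10 redox genes, of which 4 lay above and 1 below. The metallothioneins *Mt1* and *Mt2*, which bind zinc and copper, were above by 0.59 and 0.47. *Tdh*, the threonine dehydrogenase of mouse pluripotent cells, was 284 to 487 CPM in RPG3 (median 374). In gPSC passage 1 it was 707 CPM, at 0.54. Among 11 genes of serine, glycine, threonine and folate metabolism it was 1 of 2 above, and 3 lay below. Without day 18 replicate 5, 5 lay below, where 1436 of 10198 genes did. *Asns*, asparagine synthetase, was above at 0.50, the 1 of 9 integrated stress response genes to be so, and *Cdkn1a*, the inhibitor p21, was above by 0.04 while 7 of 9 genes of the p53 list, which holds *Trp53* itself beside its targets, lay inside. Of 18 sterol synthesis genes, 4 were below, none above and none called. Without day 12 replicate 2, 8 were below, where 1810 of 10130 genes were. Of 10 genes of primordial germ cells, 3 were above, 1 below and none called, and *Prdm14*, which represses the epiblast programme, was at 0.51, or 1.75 without day 23 replicate 2. *Afp*, an endodermal secreted protein, was the single call of 2 lineage genes with signal, at 4.29 to 58.2 CPM against 1.06 CPM.

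The 10 genes farthest above the RPG3 range were *Trpm1*, *Meg3*, *AI662270*, *Crygd*, *Serpinb1b*, *Aqp3*, *Cdx1*, *Mirg*, *Ido2* and *AU040972*. *Trpm1* (chr7:64153835-64269775, plus strand), a cation channel known from melanocytes and retina, had 0 to 1.98 CPM in RPG3 with a median of 0.289, and 118 CPM in gPSC passage 1, at 5.32. It was 141 CPM at passage 15, 160 CPM in ES cells and 0.0544 CPM in day 0 SSCs. *Aqp3*, a water and glycerol channel, had 0 to 4.44 CPM (median 1.70) against 77.5 CPM, at 3.85. *AI662270*, an uncharacterized transcript, had 0 to 5.08 CPM against 128 CPM, at 4.40 or 5.71 without day 18 replicate 5, and *Serpinb1b*, a protease inhibitor, had no UMI in any RPG3 library and 15.2 CPM in gPSC passage 1. *Serpinb1b* had a UMI in 15 of the 48 gPSC cells and *AU040972*, the last of the 10, in 8 of 48, so a minority of cells carried these sums. *Crygd*, a lens crystallin, and *Ido2*, a tryptophan-degrading enzyme, had 38.1 and 26.6 CPM in gPSC passage 1 and at most 0.980 and 1.27 CPM in RPG3. All RPG3 UMIs of *Crygd* were in day 18 replicate 5, without which its distance went from 4.30 to 5.31. *AU040972* differed from the rest, since its 11.8 CPM in passage 1 was 0.544 CPM in passage 15 and 0.0675 CPM in ES cells, near the RPG3 levels of at most 0.0613 CPM.

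The 10 genes farthest below were *Otx2*, *Pou3f1*, *Aire*, *Fgf15*, *Esrp1*, *Crtac1*, *Atp6v0a4*, *Tuba3b*, *Slc16a3* and *Taf7l*. *Aire* (chr10:78030022-78043610, minus strand), the autoimmune regulator of the thymus, had 54.1 to 217 CPM in RPG3 with a median of 181 and 1.06 CPM from 14 UMIs in gPSC passage 1, at -4.74, and its mean was 156-fold higher in RPG3. The lowest library was day 12 replicate 2, without which the range was 101 to 215 CPM and the distance -5.62. It was 0.490 CPM in day 0 SSCs, 7.62 in ES cells and 0 in passage 15, so among the groups set side by side it was high in RPG3. *Crtac1*, a secreted matrix protein, had 13.8 to 51.1 CPM (median 30.05) and no UMI in gPSC passage 1, at least 61-fold over the floor (distance -3.89, or -4.49 without day 18 replicate 3), but 16.4 CPM in passage 15, inside the RPG3 range. *Atp6v0a4*, a subunit of the vacuolar proton pump, had 13.6 to 33.4 CPM (median 17.8) and no UMI, at least 60.1-fold. *Tuba3b*, an alpha-tubulin, had 26.3 to 151 CPM (median 32.8) against 1.06 CPM, and 465 CPM in day 0 SSCs, and its count is uncertain because a near-identical paralog can share its reads.

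**Figure D4:**
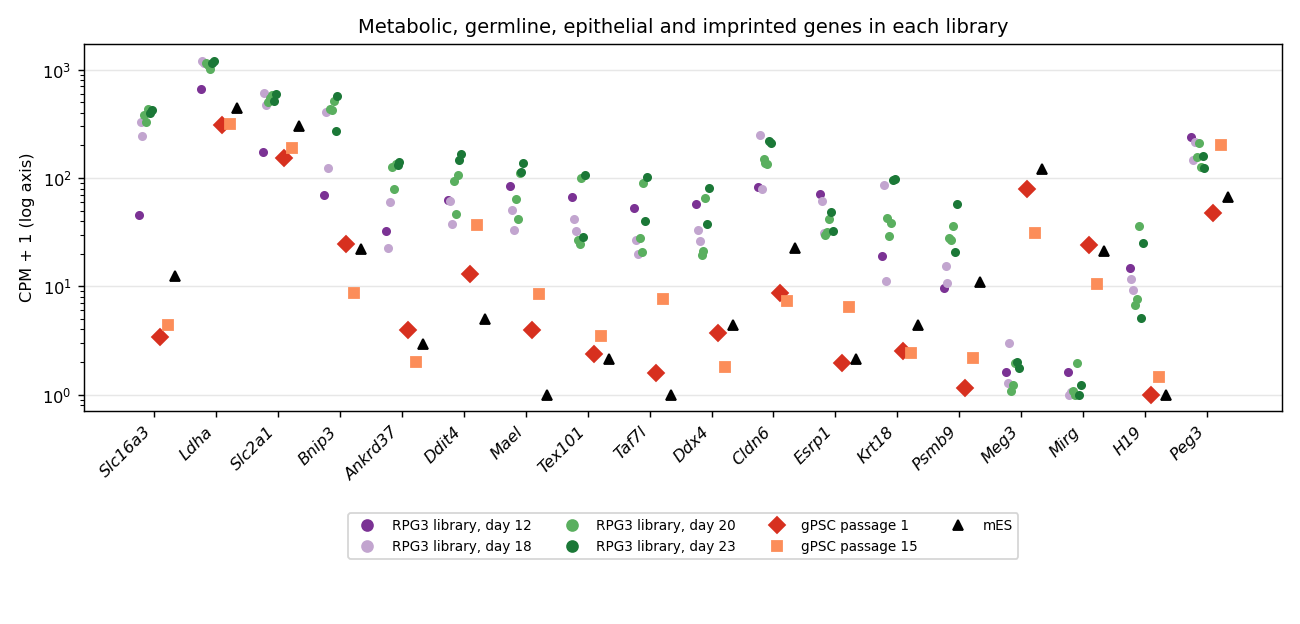
Levels in CPM with 1 CPM added (log axis) of 18 metabolic, germline, epithelial, antigen presentation and imprinted genes, with symbols for the 8 RPG3 libraries by day, gPSC passages 1 and 15 and ES cells. *Slc16a3* at 2.41 CPM in gPSC passage 1 lies below all RPG3 circles, of which day 12 replicate 2 at 44.2 CPM is the lowest, while *Meg3* at 77.9 CPM lies above all of them.

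Shares of cells with at least 1 UMI were taken after each cell was thinned to 50000 UMIs, which left out 7 of the 261 RPG3 cells and 2 of the 48 gPSC cells. *Otx2* was found in 90.9% of RPG3 cells, 80.0 to 97.1% by library, and in 8.70% of gPSC passage 1 cells (exact binomial 95% interval 2.42 to 20.8%). Without thinning the shares were 95.8% and 10.4%, and in day 0 SSCs, which should lack the gene, 1.18% thinned and 1.06% unthinned. At passage 15 the thinned share was 9.68% and the unthinned one 56.3%. *Pou3f1* was in 69.7% of thinned RPG3 cells and 2.17% of gPSC cells (91.6% and 4.17% unthinned), and *Aire* in 90.2% and 2.17% (94.6% and 8.33% unthinned). The shares of cells with a UMI thus differed in the same direction as the sums. Such a share also falls when RNA per cell falls, so alone it does not separate fewer expressing cells from less RNA per cell. *Fgf15* was in 39.4% of thinned RPG3 cells and in 0 of 46 gPSC cells, and unthinned in 54.8% and 0%. The exact interval of that 0 reaches 7.71%, which limits cells with a UMI at this depth and not cells that express the gene. *Nanog* was in 91.3% and 100%, and *Esrrb* in 70.9% and 95.7% (96.9% and 100%, and 90.0% and 100%, unthinned).

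In the other direction, *Trpm1* was found in 1.58% of thinned RPG3 cells and 82.6% of gPSC passage 1 cells (2.299% and 89.6% unthinned), and *Cdx1* in 7.48% and 89.1% (14.2% and 97.9%). *Sp5* was in 17.3% and 91.3% (59.8% and 93.8% unthinned), so more RPG3 cells held a low level of it than the thinned share shows. *Meg3* was in 1.58% of RPG3 cells and 41.3% of gPSC cells (27 to 56.8%), and in 83.7% of ES cells. Unthinned it was in 11.5%, 58.3% and 88.9%. Fewer gPSC than ES cells therefore held *Meg3*, in 1 library each. Among germline genes, *Mael* had a UMI in 77.6% of thinned RPG3 cells and *Tex101* in 72.4%, against 13% and 0% of gPSC cells (96.9% and 95.4% against 18.8% and 4.17% unthinned), and *Dazl* in 95.7% against 30.4% (99.2% and 47.9%). Other members were found in few thinned RPG3 cells, *Zbtb16* in 14.6% and *Gfra1* in 6.30%, but in 56.7% and 28.4% of unthinned ones.

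**Figure D5:**
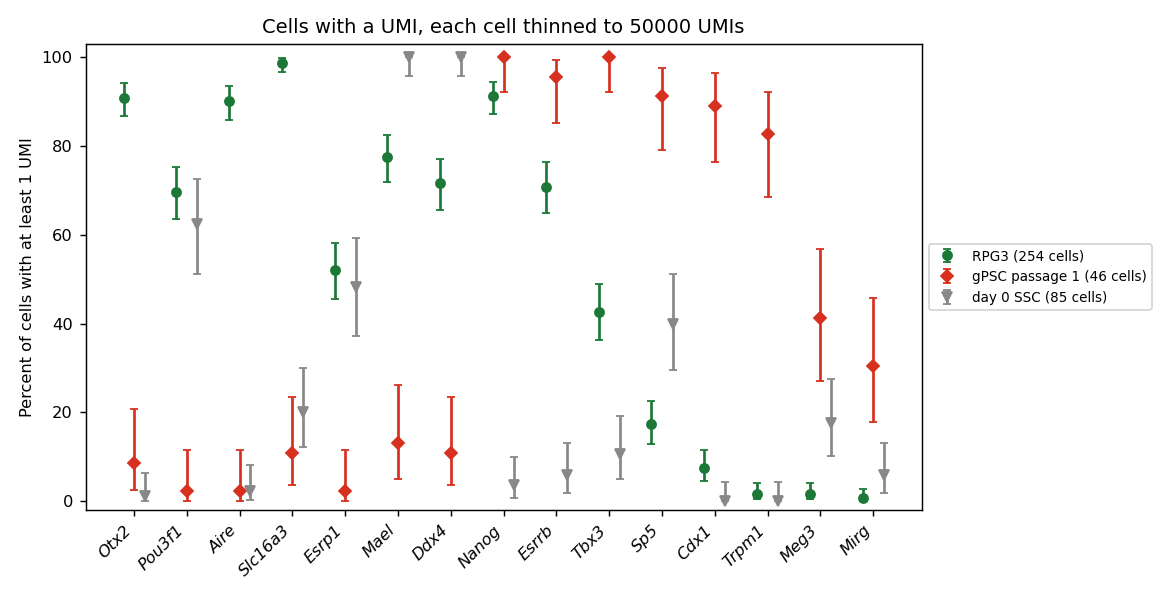
Percent of cells with at least 1 UMI for 15 genes after thinning to 50000 UMIs, in 254 RPG3 cells (circles), 46 gPSC passage 1 cells (diamonds) and 85 day 0 SSCs (triangles), with exact binomial 95% intervals that cover counting error only. *Otx2* is at 90.9% in RPG3 and 8.70% in gPSC passage 1, and *Trpm1* at 1.58% and 82.6%.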

How the data were processed

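Single cells were picked by hand and profiled by modified STRT-seq. The deposited values are raw UMI counts per gene and cell, made by the authors with UMI-tools, STAR 2.7.2b against mm10 and featureCounts 2.0.0. The authors removed shallow cells and cells with a high percentage of mitochondrial counts, and the deposited percentages had medians of at most 1.05% in the sums used. Clusters are those of the deposited annotation, and no doublet caller was run, so doublets were left as deposited.

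RPG3 counts were summed per library with at least 5 such cells. All annotated cells of the gPSC and ES cell libraries, and the SSCs of day 0, were summed likewise. Sums were scaled to CPM by TMM (factors 0.934 to 1.06, edgeR 4.0.16 in R 4.3.3), and genes were examined when the mean of both group levels was at least 5 CPM (Python 3.11.15, pandas 2.3.3, scipy 1.17.1). In gPSC passage 1, 1 CPM was 13.3 UMIs, and the floor of 3 UMIs was 0.226 CPM there and 1.87 CPM in the smallest RPG3 sum. The code of the rule was checked on simulated counts with known folds, which is no test of the results given here. No p-value was computed, since gPSC passage 1 is 1 library and cells are not replicates. Passage 15 and ES cells share the RPG3 libraries as comparator and are given as values only.

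The members, markers and 30 gene lists were chosen with earlier results of these data known. Named genes are the 3 markers, the 10 farthest on each side, up to 3 called genes per list and direction and the first 3 of each list. Others (*Pdk1*, *Tfcp2l1*, *Dppa3*, *Dnmt3l*, *Zfp57*, *Zic5*, and genes named for a call that changed without 1 library) were picked after their values were seen. Positions are from GENCODE vM21 (GRCm38) and promoters from RefSeq. Alternatives were DESeq2 1.42.0 size factors, totals alone, other filters and added CPM, thinned sums, single-cell means, each batch alone and leaving out each library.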

Additional observations from a re-analysis of the deposited data

Results flagged for a closer look

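Of 112 named genes examined for 1 RPG3 library far from the other 7, 19 had such a library, which chance gives for about 1 gene in 20 where values spread normally. That rate does not apply to *AU040972* and *Crygd*, whose RPG3 UMIs (1 and 16) were all in 1 library, nor to other genes with few UMIs. Day 12 replicate 2, the sum of 7 cells, accounted for 10 of them. Its RPG3 cells were highest for *Esrrb* (177.3 CPM), *Klf4* (224.6), *Dnmt1* (313.6), *Igf2r* (59.1), *Epas1* (141.8) and *Mdm2* (191.6), and lowest for *Ldha* (657.0), *Slc2a1* (173.6), *Gcat* (75.9) and *Mvk* (21.15). Its level of *Esrrb* and *Klf4* was what placed gPSC passage 1 inside the range for both genes.

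Day 18 replicate 5 was highest for *Meg3* (2.021 CPM), *AI662270* (5.084), *Crygd* (0.9801) and *AU040972* (0.06126), all of them far under the gPSC level. Day 18 replicate 3 was highest for *Fgf15* (76.36 CPM), *Tcf7* (66.77) and *Dnmt3a* (457.8). Day 20 replicate 8 was highest for *Ido2* (1.269 CPM) and day 23 replicate 2 for *Prdm14* (18.35).

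For *Dnmt1* the gPSC level of 164.3 CPM, and for *Epas1* that of 35.08 CPM, lay between the early and the late RPG3 libraries, with all libraries of days 12 and 18 on one side and all of days 20 and 23 on the other. The difference was not tested, and since days 12 and 18 are 1 batch and days 20 and 23 the other, day and batch cannot be told apart.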

How the results depend on the processing

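No named gene that was called changed direction under any alternative run, but the medians of 10 lists, most of them near 0, changed sign under at least 1 (core pluripotency, Nodal, LIF and STAT3, DNA methylation, redox, integrated stress, p53, G1 control, feeder and dissociation). Over all genes, 74 of 88 values stayed within 1.5 times of those reported, list medians moved by less than the spread between RPG3 libraries in 376 of 392 values, and single genes kept their side of the call in 2829 of 2877, with 9 losing and 39 gaining a call. With DESeq2 size factors 203 of the 205 calls above and 302 of the 304 below were kept. The calls above were 361 with a minimum of 1 CPM, 101 with 20 CPM and 399 with no filter, and the calls below were 109 with 20 CPM and 155 with 5 CPM added. Genes below the range were 795 with 20 CPM and 2188 with no filter. Against the batch of days 20 and 23 alone, 2939 genes lay above and 2301 below, with 586 called below. Against the batch of days 12 and 18 alone these were 3070 and 2489, with 444 and 477 called. A range over fewer libraries is narrower by construction. Of the calls below, 295 and 272 of the 304 were kept by these 2 batches. Leaving out 1 library gave 1939 to 2472 genes above, 1432 to 1810 below, 212 to 250 called above and 316 to 436 called below, the highest each time without day 12 replicate 2, which is also the only library under 10 RPG3 cells.

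List medians (log2) that moved were, in the batch of days 20 and 23, core pluripotency 0.28, naive 1.03, Nodal 0.61 and redox 0.34, and in the batch of days 12 and 18, core -0.15, formative -1.86, Nodal -0.56, serine and glycine -0.029, epithelial -1.10 and antigen presentation -0.85. With sums thinned to the smallest they were redox -0.094, p53 -0.30 and G1 control -0.12. With libraries of 1 culture name summed, a choice made after seeing the data, the serine and glycine median was -0.22. Leaving out 1 library put the naive median at 0.71 to 0.99 and the serine and glycine median at -0.38 to -0.18. The core and Nodal medians thus differ in sign between batches, and the cause was not tested.

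No paired analysis was possible because gPSC passage 1 is a single library that shares no replicate with the RPG3 libraries. The limits are 1 gPSC library whose batch and medium no RPG3 library shares, RPG3 libraries that partly share a culture, and a count floor that leaves low genes in the smallest sum unresolved.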
